A study of Mus musculus with 192 samples.

Results

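Enzymes of cholesterol synthesis, the 7 genes Hmgcs1, Idi1, Fdps, Fdft1, Sqle, Lss and Cyp51, were followed in single erythroid progenitors of mouse fetal liver. They were picked by gene symbol, and all 7 are among the 49466 genes of the count table. The progenitors were colony forming unit-erythroid (CFU-E) cells, which form a small red cell colony within days, and the earlier burst forming unit-erythroid (BFU-E) cells. Both came from embryonic day 14.5 livers of C57/Bl6J mice with no further treatment or genotype named. Before the sort the livers had been stripped of mature and unwanted cells with antibodies to Ter119, CD41, CD16/32, Sca-1, CD11b, Ly-6G, CD45R and CD3e. What was left was stained for CD24, CD71 and CD117 along with propidium iodide, and single cells were sorted. How the gates were drawn and from how many mice the cells came is not given in the sources used here. Each cell type filled 1 plate with 96 wells and was sequenced separately, so cell type, plate and lane cannot be told apart. The lane is inferred from a tag in the column names that is the same for all cells of 1 type.

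Cholesterol is built from acetyl-CoA through mevalonate, isoprenoid pyrophosphates, squalene and lanosterol. Genes of the pathway are known to be switched on together by SREBP transcription factors when sterols in the endoplasmic reticulum run low, and switched off when sterols are plentiful. Intermediates before squalene also feed ubiquinone, dolichol and prenylated proteins. Dividing red cell progenitors need membrane for each daughter cell, and the mature red cell, which has lost its organelles, no longer makes cholesterol.

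Of the columns used, 89 of 95 CFU-E and 92 of 96 BFU-E cells had at least 100000 counts and 2000 detected genes, with 131891 to 2992101 counts per kept CFU-E cell and 114288 to 3864040 per kept BFU-E cell. Every kept cell was reduced at random to 100000 counts, and a count below is a number of reads per 100000 in a cell. CPM is the same quantity summed over the cells of a group, 10 CPM being 1 read per 100000. It is a share of a cell's reads and does not measure RNA per cell. Cells of 1 plate are not replicates, so no test was made, and intervals are exact 95% intervals that cover counting error only. PCR copies are not independent molecules, so even counting error is understated.

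The plates were not pure. In clusters made without any gene of the cholesterol, isoprenoid and fatty acid lists, 86 of 89 CFU-E cells were erythroid-like, and 3 formed an unnamed group whose leading genes included Ighm, Ebf1 and Cd79b, genes of B lymphocytes, although CD45R, a B cell antigen, was among the depletion markers. On the BFU-E plate 47 cells were erythroid-like (Epor, Lmna and Aqp1 among the leading genes), 38 cells in 2 clusters were granulocyte-monocyte-like, and 7 stayed unnamed. The 2 granulocyte-monocyte-like clusters were led by Adgrl4, Hlf, Csf3r and Ccl9 and by Clec7a, Ctsh and Ctss. Some of these, such as Hlf, also mark multipotent progenitors. The 10 erythroid markers, such as Klf1 and Epor, summed to 13447 CPM in CFU-E, 2778 CPM in erythroid-like BFU-E and 387.4 CPM in granulocyte-monocyte-like BFU-E cells, and all 10 reached 5 CPM in both erythroid groups. The 14 granulocyte and monocyte markers summed to 3.60 CPM in CFU-E (8 of 14, Mpo and Elane among them, at 0), 124.5 CPM in erythroid-like BFU-E and 5911 CPM in granulocyte-monocyte-like BFU-E cells. The last group was not cleanly myeloid. Of the 10 erythroid markers 5 reached 5 CPM there, as did 6 of 12 lymphoid markers, which summed to 704.7 CPM. At least 3 lymphoid markers were found in 35 BFU-E cells and in 3 CFU-E cells. Hepatocytes, the main cholesterol-making cells of the adult liver, were gauged by 8 markers, which summed to 166.6 CPM in CFU-E, 140.6 CPM in erythroid-like BFU-E and 202.5 CPM in all BFU-E cells. None of the 8 was at 0 in these groups, but only 2 reached 5 CPM in CFU-E and in erythroid-like BFU-E cells. In all BFU-E cells 5 did. The part of hepatocyte transcripts in the levels below was not tested.

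On the CPM scale both plates had nearly the same sum of the 7 enzymes but divided it differently among them. Hmgcs1, which makes the substrate of the mevalonate pathway, was several-fold lower in CFU-E, while Fdft1, Sqle and Lss, which lead through squalene to lanosterol, were somewhat higher. Idi1 and Fdps, the isoprenoid steps between them, differed by less than their counting error on the CPM scale. The 7 enzymes together took 414.0 CPM (400.8 to 427.6) in CFU-E cells and 416.5 CPM (403.4 to 429.9) in BFU-E cells. In erythroid-like BFU-E cells they took 345.7 CPM (329.1 to 363.0). Without BFUE_56, a single BFU-E cell described below, the BFU-E sum was 342.4 CPM (330.5 to 354.7). How these sums compare depends on the scaling between the plates, and no sum was taken on another scale.

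Setting CFU-E beside BFU-E meets an uneven backdrop. Across all 9441 measured genes (a mean of at least 5 CPM over both groups) the median log2 fold of CPM + 1 was -0.57, so most genes were lower in CFU-E on this scale. Of these genes 6.56% were at least 2-fold higher and 34% at least 2-fold lower in CFU-E. Against that, 0 of the 7 members were at least 2-fold higher and 1, Hmgcs1, was at least 2-fold lower. The members' median log2 fold was 0.19. With TMM factors, which set the all-gene median to 0.00, Fdft1, Sqle and Lss were at least 2-fold higher, so a call for these 3 depends on the scaling, and that for Hmgcs1 does not.

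Hmgcs1 encodes cytosolic HMG-CoA synthase, which joins acetoacetyl-CoA and acetyl-CoA into HMG-CoA. Its gene (ENSMUSG00000093930) lies on the plus strand at chr13:119690379-119708260 of GRCm38. Single CFU-E cells held 0 to 16 reads with a median of 0, against 0 to 308 with a median of 6 in BFU-E cells and 0 to 32 with a median of 5 in erythroid-like BFU-E cells. The ranges overlapped, but 22 of 92 BFU-E cells and 9 of 47 erythroid-like BFU-E cells lay above the highest CFU-E cell. At least 1 read was found in 47.2% of CFU-E cells (36.5% to 58.1%) and 66.3% of BFU-E cells (55.7% to 75.8%). The summed level was 23.7 CPM (20.6 to 27.1) in CFU-E and 129.0 CPM (121.8 to 136.6) in BFU-E, 5.44-fold lower in CFU-E (4.70 to 6.33). Relative to the median gene the log2 fold was -1.83. Against the 79.1 CPM of erythroid-like BFU-E cells alone it was 3.34-fold lower (2.81 to 3.97). Over the settings tried, Hmgcs1 was 3.50-fold to 5.90-fold lower in CFU-E than in BFU-E and 2.14-fold to 5.62-fold lower than in erythroid-like BFU-E cells. The cell BFUE_56 alone held 25.9% of the plate's Hmgcs1 reads. Without it the BFU-E level was 96.6 CPM and the gene was 4.07-fold lower in CFU-E. Of its exonic bases, 12.1% are shared with the antisense gene Gm48342. The library does not mark strand, so strand cannot tell reads of Hmgcs1 and Gm48342 apart on these bases. No source used here says how such reads were counted.

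**Figure D1:**
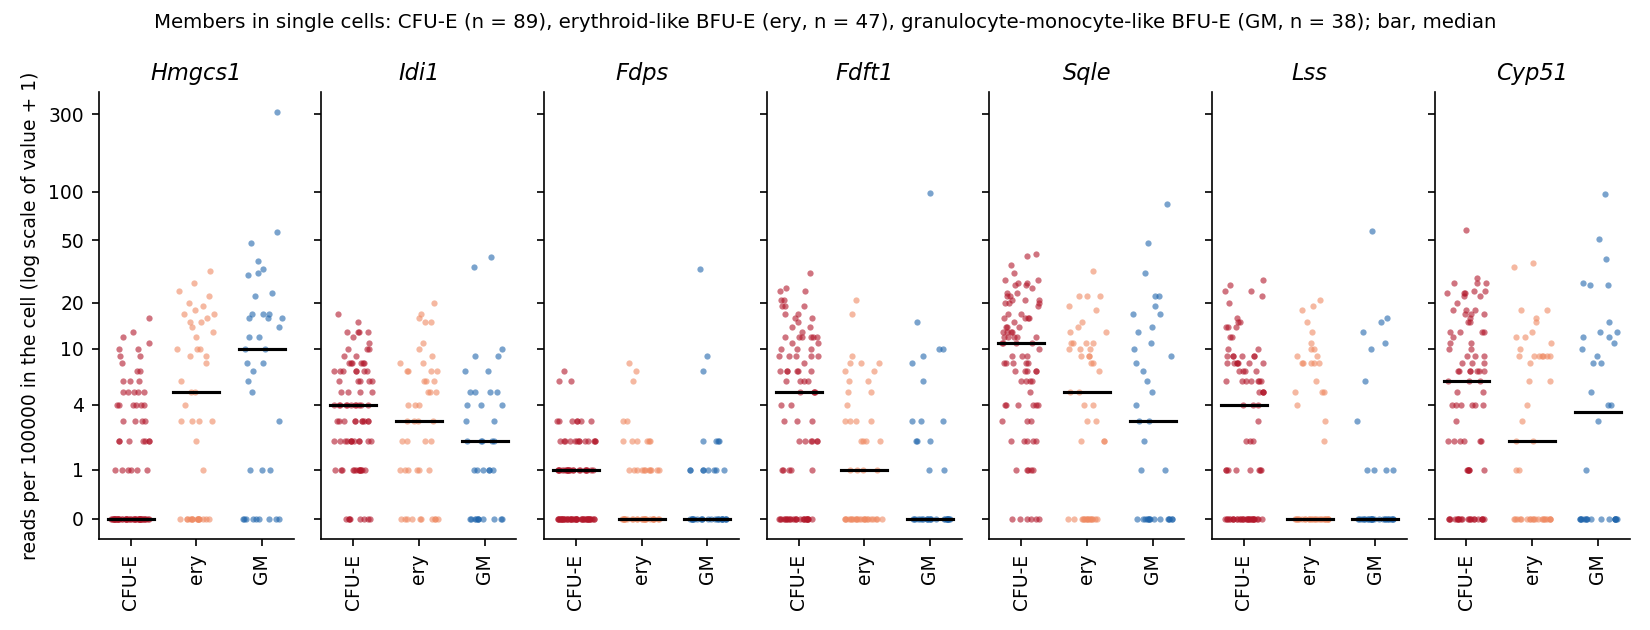
Reads per 100000 (vertical axis, log scale of the value + 1) of each member in every CFU-E, erythroid-like BFU-E and granulocyte-monocyte-like BFU-E cell (1 point a cell, bar at the median). Hmgcs1 has a median of 0 in CFU-E and 5 in erythroid-like BFU-E cells, Sqle 11 and 5, and 1 granulocyte-monocyte-like cell tops every panel.

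Idi1, the isomerase that turns isopentenyl into dimethylallyl pyrophosphate, had the ratio nearest to 1 of the members on the CPM scale. Single CFU-E cells held 0 to 17 reads (median 4), against 0 to 39 (median 2) in BFU-E and 0 to 20 (median 3) in erythroid-like BFU-E cells. It was found in 91.01% of CFU-E cells and 72.8% of BFU-E cells, so a larger share of CFU-E cells held it at almost the same summed level. That level was 46.4 CPM in CFU-E and 44.3 CPM in BFU-E, a ratio of 1.05 (0.910 to 1.203) that became 1.55 with TMM factors. Against erythroid-like BFU-E (48.5 CPM) the ratio was 0.957 (0.812 to 1.13). The gene (ENSMUSG00000058258) lies at chr13:8885501-8892451, plus strand.

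Fdps, farnesyl pyrophosphate synthase, stands at the branch where sterols and other isoprenoids part, and was the lowest member in both plates. CFU-E cells held 0 to 7 reads (median 1), BFU-E cells 0 to 33 (median 0) and erythroid-like BFU-E cells 0 to 8 (median 0). The level was 10 CPM (8.03 to 12.3) in CFU-E, 12.5 CPM in BFU-E and 10.6 CPM in erythroid-like BFU-E cells. The ratio of CFU-E to BFU-E was 0.800 (0.600 to 1.06), but 1.11 without BFUE_56, which held 28.7% of the plate's Fdps reads, and 1.19 with TMM factors. The ratio to erythroid-like BFU-E was 0.940 (0.658 to 1.36). These levels are uncertain, since 26.7% of the exonic bases of Fdps (chr3:89093588-89101959, minus strand) are shared with genes on the same strand, the protein-coding Gm43738 among them, and how such reads were counted is not stated.

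Fdft1, squalene synthase, makes the first molecule used only for sterols. CFU-E cells held 0 to 31 reads with a median of 5, against 0 to 98 with a median of 0 in BFU-E and 0 to 21 with a median of 1 in erythroid-like BFU-E cells. It was found in 71.9% of CFU-E cells (61.4% to 80.9%) and 46.7% of BFU-E cells (36.3% to 57.4%), and 4 of 89 CFU-E cells lay above every erythroid-like BFU-E cell. The level of 69.9 CPM in CFU-E against 37.8 CPM in BFU-E was 1.85-fold higher (1.62 to 2.11). It was 2.43-fold higher (2.02 to 2.95) against the 28.7 CPM of erythroid-like BFU-E cells, and 2.54-fold higher than in BFU-E without BFUE_56. In the erythroid-like comparison 6.26% of 9109 measured genes were at least 2-fold higher and 31.2% at least 2-fold lower, and of the members Fdft1 alone was higher and Hmgcs1 alone lower. When BFU-E cells were instead called erythroid from their own marker means, a set that takes in BFUE_56, Fdft1 was 1.53-fold higher. The gene (chr14:63145150-63179578, minus strand) shares 18.3% of its exonic bases with Ctsb on the opposite strand, and strand cannot tell reads of Fdft1 and Ctsb apart there.

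Sqle, squalene epoxidase, a rate-limiting enzyme of the sterol branch, was the most abundant member in CFU-E. Single CFU-E cells held 0 to 41 reads with a median of 11, against 0 to 84 with a median of 3.5 in BFU-E and 0 to 32 with a median of 5 in erythroid-like BFU-E cells. It was found in 93.3% of CFU-E cells (85.9% to 97.5%) and 61.96% of BFU-E cells (51.2% to 71.9%). The level was 119.8 CPM (112.7 to 127.2) in CFU-E, 73.2 CPM in erythroid-like BFU-E and 78.04 CPM in BFU-E cells. CFU-E was 1.53-fold higher than BFU-E (1.39 to 1.69) and 1.64-fold higher than erythroid-like BFU-E (1.45 to 1.85). Sqle (chr15:59315077-59331192, plus strand) shares no exonic base with another gene.

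Lss, lanosterol synthase, closes the first sterol ring system. CFU-E cells held 0 to 28 reads (median 4), BFU-E cells 0 to 57 (median 0) and erythroid-like BFU-E cells 0 to 21 (median 0). The level was 56.7 CPM in CFU-E, 43.6 CPM in erythroid-like BFU-E and 38.2 CPM in BFU-E cells, 1.49-fold higher than BFU-E (1.30 to 1.71) and 1.30-fold higher than erythroid-like BFU-E (1.10 to 1.54). All 3 lymphoid-led CFU-E cells held 0 reads of Lss, which lies at chr10:76531588-76557138 on the plus strand.

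Cyp51, the lanosterol demethylase, rested partly on those 3 CFU-E cells. They held 24, 27 and 58 reads, or 363.3 CPM (298.3 to 438.3), against 77.9 CPM in the other 86 CFU-E cells. With them the level was 87.5 CPM in CFU-E, 61.9 CPM in erythroid-like BFU-E and 76.6 CPM in BFU-E cells, a ratio of 1.14 over BFU-E (1.03 to 1.27) and 1.41 over erythroid-like BFU-E (1.23 to 1.62). Without them the ratio was 1.017 to BFU-E and 1.26 to erythroid-like BFU-E. Single CFU-E cells held 0 to 58 reads (median 6) and BFU-E cells 0 to 97 (median 1.5). Hmgcs1 also stood at 76.7 CPM in the 3 cells, against 21.9 CPM in the other CFU-E cells, and without them was 5.90-fold lower in CFU-E than in BFU-E. Lymphoid markers summed to 2893 CPM in the 3 cells, against 1.74 CPM in the other 86, and hepatocyte markers to 710 CPM in the 3 cells, against 147.7 CPM in the other 86. Only 3 of the 8 hepatocyte markers made up the 710 CPM, as Apoa1, Apoa2, Serpina1a, Fgb and Trf were at 0 in the 3 cells. Whether lymphoid or hepatocyte transcripts bear on the Cyp51 level was not tested. Cyp51 lies at chr5:4081145-4104746, minus strand.

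Levels of different genes were ordered per kilobase of exon. The length takes in every annotated exon of a gene, 10787 bases for Lss and 3505 to 5546 for the other members. A transcript can be shorter, so the low place of Lss rests partly on this length. Sqle led in CFU-E with 21.6 CPM per kb, followed by Cyp51 (19.8), Fdft1 (16.5), Idi1 (13.2), Lss (5.26), Hmgcs1 (5.16) and Fdps (2.38). In erythroid-like BFU-E cells Hmgcs1 led with 17.2 CPM per kb, then came Cyp51 (14.02), Idi1 (13.8), Sqle (13.2), Fdft1 (6.80), Lss (4.04) and Fdps (2.53). Hmgcs1 thus stood with Lss near the bottom of one order and with Cyp51 and Idi1 near the top of the other. Intervals overlapped between Sqle and Cyp51 and between Lss and Hmgcs1 in CFU-E. In erythroid-like BFU-E cells they overlapped among Cyp51, Idi1 and Sqle, and that of Hmgcs1 overlapped those of Cyp51 and Idi1, so the order within these sets is not settled.

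Ratios of 1 member to another within a group are free of any scaling between the plates. Hmgcs1 reads per Sqle read came to 0.198 (0.170 to 0.230) in CFU-E, 1.08 (0.931 to 1.26) in erythroid-like BFU-E and 1.65 (1.51 to 1.82) in all BFU-E cells. The same ratio in granulocyte-monocyte-like BFU-E cells was 2.20 (1.94 to 2.50), or 1.75 without BFUE_56. Per Idi1 read the ratio was 0.511 in CFU-E, 1.63 in erythroid-like BFU-E and 2.91 in all BFU-E cells. As a share of the members' reads, Hmgcs1 made up 5.73% (5.00% to 6.53%) in CFU-E, 22.9% (20.9% to 25.01%) in erythroid-like BFU-E and 30.98% (29.5% to 32.5%) in all BFU-E cells. Fdft1 made up 16.9% in CFU-E and 8.31% in erythroid-like BFU-E cells, and Sqle 28.9% in CFU-E and 21.2% in erythroid-like BFU-E cells.

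**Figure D2:**
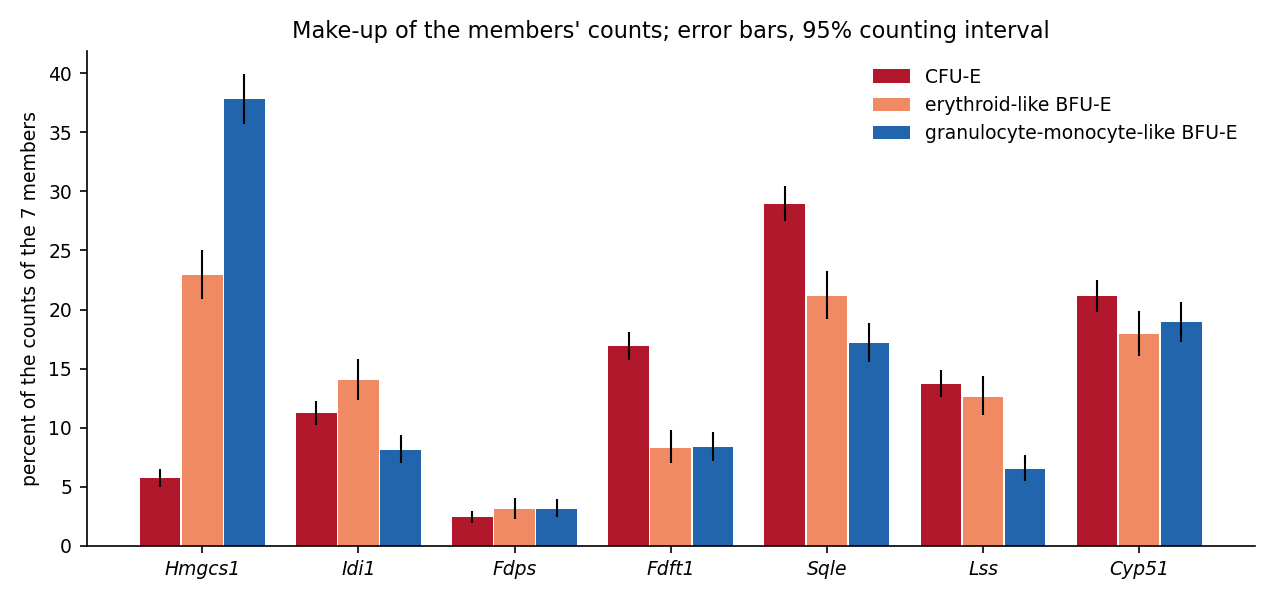
Percent of the reads of the 7 members taken by each member (bars, from 0) in CFU-E, erythroid-like BFU-E and granulocyte-monocyte-like BFU-E cells, with exact 95% counting intervals. Hmgcs1 takes 5.73% in CFU-E, 22.9% in erythroid-like BFU-E and 37.8% in granulocyte-monocyte-like BFU-E cells, while Fdft1 and Sqle take their largest shares in CFU-E.

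Promoter sequence was at hand for 4 of the 7 members, Hmgcs1, Idi1, Lss and Cyp51. The 250 bases before each RefSeq start (GRCm38.p6) are printed 5′ to 3′ because Hmgcs1 parted from the other enzymes. Capitals mark 2 motifs, searched on both strands: TCACNCCAC, the sterol regulatory element core that SREBP binds, and CCAAT, the box of the factor NF-Y, which reads as its reverse complement where it lies on the other strand. The windows are chr13:119690101-119690350 (plus strand) for Hmgcs1, chr13:8885356-8885605 (plus) for Idi1, chr10:76531355-76531604 (plus) for Lss and chr5:4104698-4104947 (minus) for Cyp51.
Hmgcs1: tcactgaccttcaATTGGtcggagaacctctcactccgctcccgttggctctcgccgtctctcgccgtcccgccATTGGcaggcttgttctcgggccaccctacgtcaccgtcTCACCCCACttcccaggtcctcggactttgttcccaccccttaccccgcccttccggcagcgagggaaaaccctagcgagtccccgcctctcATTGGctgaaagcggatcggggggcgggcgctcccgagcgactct
Idi1: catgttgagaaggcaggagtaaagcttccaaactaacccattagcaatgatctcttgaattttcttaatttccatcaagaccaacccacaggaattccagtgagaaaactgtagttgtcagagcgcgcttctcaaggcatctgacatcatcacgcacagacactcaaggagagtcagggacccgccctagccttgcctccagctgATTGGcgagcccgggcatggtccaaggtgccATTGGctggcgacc
Lss: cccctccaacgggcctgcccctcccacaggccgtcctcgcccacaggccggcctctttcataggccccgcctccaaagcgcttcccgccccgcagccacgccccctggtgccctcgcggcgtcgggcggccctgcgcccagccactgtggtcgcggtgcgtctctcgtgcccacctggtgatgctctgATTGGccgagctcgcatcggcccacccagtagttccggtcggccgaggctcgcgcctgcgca
Cyp51: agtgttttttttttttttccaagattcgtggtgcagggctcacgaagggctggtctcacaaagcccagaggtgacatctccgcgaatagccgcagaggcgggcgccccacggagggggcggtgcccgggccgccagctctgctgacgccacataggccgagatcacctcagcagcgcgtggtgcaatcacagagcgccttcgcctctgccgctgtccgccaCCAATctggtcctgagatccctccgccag
The Hmgcs1 window held TCACCCCAC 137 bases before the start and 3 CCAAT boxes, 237, 176 and 45 bases before it. Idi1 held 2 CCAAT boxes, Lss 1 and Cyp51 1, and none of these 3 windows held the letters TCACNCCAC. Among the 250-base windows of 32851 promoters, 1.05% held TCACNCCAC and 33.8% held CCAAT. A match describes letters, not binding, and other forms of the sterol regulatory element were not searched. Fdft1 and Sqle, which were higher in CFU-E, had no window here, so Hmgcs1 could not be set beside them. Whether the motif bears on the level of Hmgcs1 was not tested.

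The other enzymes of the pathway did not differ as a block either. Of 13 enzymes outside the 7, 12 were measured, 0 were at least 2-fold higher and 3 were at least 2-fold lower in CFU-E than in BFU-E. Their median log2 fold was -0.26, against -0.57 for all genes, so relative to the median gene it was positive. Medians of lists given below can be read against the same -0.57. Counts of this list and of those below can be read against 6.56% of all measured genes at least 2-fold higher and 34% at least 2-fold lower. Mvd, the last mevalonate step, was at 3.82 CPM in CFU-E and 15.8 CPM in BFU-E, 4.13-fold lower (2.82 to 6.18). Ebp, the sterol isomerase, was at 27.1 CPM in CFU-E and 54.9 CPM in BFU-E, 2.03-fold lower (1.74 to 2.37). Hsd17b7, a sterol ketoreductase, was at 11.8 CPM in CFU-E and 24.7 CPM in BFU-E, 2.09-fold lower, but BFUE_56 held 49.3% of its BFU-E reads. Without that cell, and likewise with TMM factors, Mvd was the only one of the 3 past 2-fold. Against erythroid-like BFU-E cells the 3 at least 2-fold lower were Mvk, Mvd and Ebp, beside 31.2% of all measured genes. Acat2, which makes the acetoacetyl-CoA that Hmgcs1 uses, went the other way at 89.1 CPM in CFU-E and 70.7 CPM in BFU-E, a ratio of 1.26 (1.14 to 1.40). Mevalonate kinase Mvk had a ratio of 0.570 and phosphomevalonate kinase Pmvk 1.56, past 2-fold with TMM factors.

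After lanosterol, ratios of CFU-E to BFU-E lay between 0.478 for Hsd17b7 and 1.03 for Nsdhl. Lbr, a nuclear envelope protein that also reduces a sterol double bond, was by far the most abundant at 533.9 CPM in CFU-E and 596.7 CPM in BFU-E, a ratio of 0.895. Msmo1, the methyl sterol oxidase, had 32.6 CPM in CFU-E and 61.7 CPM in BFU-E. Sc5d had a ratio of 0.997 and Dhcr7 of 0.777. Tm7sf2, at 3.26 CPM in CFU-E and 6.41 CPM in BFU-E, was under the level counted as measured.

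**Figure D3:**
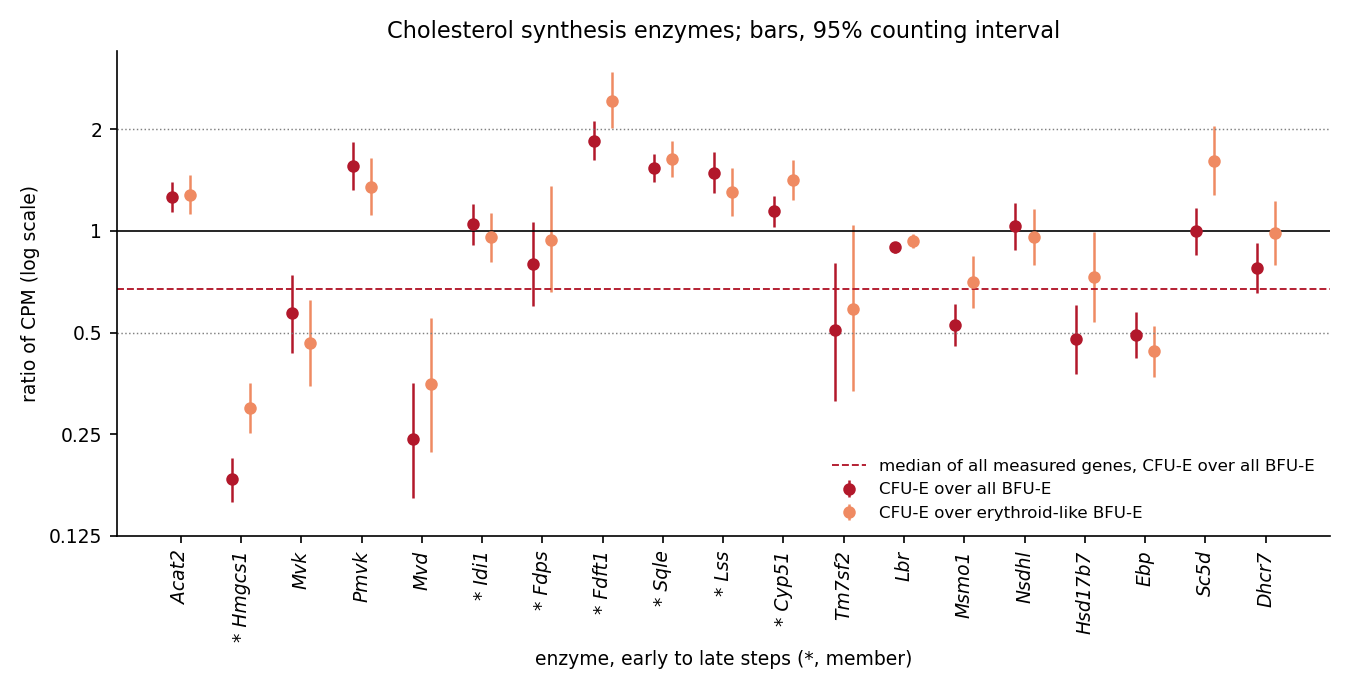
Ratio of CPM (log axis) of 19 cholesterol synthesis enzymes in pathway order, CFU-E over all BFU-E and CFU-E over erythroid-like BFU-E, with exact 95% counting intervals; dotted lines mark 2-fold and the dashed line the median of all measured genes for CFU-E over all BFU-E. Hmgcs1 (0.184) and Mvd (0.242) lie lowest against all BFU-E, and Fdft1 (1.85) highest.

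The sterol sensing genes, which set how much of the pathway is made, were led by Rnf139. This gene encodes a membrane ubiquitin ligase with a sterol-sensing domain, and had 146.6 CPM in CFU-E and 27.5 CPM in BFU-E, 5.33-fold higher (4.66 to 6.12). It was the only one of 9 at least 2-fold higher on the CPM scale, and the list's median log2 fold was -0.23. Insig2, which holds SREBP back in the endoplasmic reticulum, was at 9.89 CPM in CFU-E and 20 CPM in BFU-E, 2.02-fold lower, a call lost with TMM factors. Mbtps2, the site-2 protease that frees SREBP, was at 15.5 CPM in CFU-E and 50.7 CPM in BFU-E, 3.27-fold lower, and 1.84-fold lower against erythroid-like BFU-E cells. The SREBP genes differed in direction. Srebf1 was at 179.1 CPM in CFU-E and 103.0 CPM in BFU-E, a ratio of 1.74 (1.60 to 1.89) that passed 2-fold with TMM factors, and Srebf2 at 31.1 CPM in CFU-E and 52.7 CPM in BFU-E, a ratio of 0.590 (0.508 to 0.686). Their escort Scap had a ratio of 0.528, the other anchor Insig1 1.09 and the site-1 protease Mbtps1 0.849.

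Genes of cholesterol uptake, transport and storage held the widest gaps. Of 14, 12 were measured. CFU-E had 1 of these at least 2-fold higher and 5 at least 2-fold lower, beside 6.56% and 34% of all measured genes. The median log2 fold was -0.78. Apoe, a carrier of cholesterol in lipoproteins, had 5.96 CPM in CFU-E and 776.6 CPM in BFU-E, 130-fold lower (99.6 to 174). Abcg1, a cholesterol exporter, had 1.69 CPM in CFU-E and 99.5 CPM in BFU-E, 59.01-fold lower (35.6 to 106). Abca1, another exporter, had 2.36 CPM in CFU-E and 23.5 CPM in BFU-E. Soat1, which esterifies cholesterol for storage, had 2.36 CPM in CFU-E and 41.5 CPM in BFU-E, and the lipoprotein receptor Lrp8 4.61 CPM in CFU-E and 16.8 CPM in BFU-E. These 5 were also at least 2-fold lower against erythroid-like BFU-E cells, as were 31.2% of all measured genes. Lipa, the lysosomal lipase that frees cholesterol from its esters, was 2.28-fold higher (171.0 CPM in CFU-E and 75.1 CPM in BFU-E), and the HDL receptor Scarb1 1.58-fold higher, past 2-fold with TMM factors. Against erythroid-like BFU-E cells alone Lipa was 1.97-fold higher.

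Of 14 genes of the non-sterol isoprenoid branch, CFU-E had none at least 2-fold higher and 3 at least 2-fold lower, and the median log2 fold was -0.52. Trit1, which adds an isopentenyl group to transfer RNA, was at 8.88 CPM in CFU-E and 46.8 CPM in BFU-E, and Coq2, of ubiquinone synthesis, at 6.07 CPM in CFU-E and 23.2 CPM in BFU-E. Pggt1b, a prenyltransferase subunit, was 2.12-fold lower, a call lost with TMM factors and against erythroid-like BFU-E cells (1.95-fold). Highest in the list were Fnta, with a ratio of 1.73, and Pdss2, with 1.57, both past 2-fold with TMM factors. Of 11 fatty acid genes, 10 were measured, 2 were at least 2-fold higher and 2 at least 2-fold lower, for a median log2 fold of -0.41. Scd1, the stearoyl-CoA desaturase, had 86.5 CPM in CFU-E and 2.07 CPM in BFU-E, 41.9-fold higher (26.6 to 69.97), while its paralog Scd2 had 660.6 CPM in CFU-E and 640.1 CPM in BFU-E. Fads2 was 2.55-fold higher, and the elongases Elovl5 and Elovl6 were 2.64-fold and 2.22-fold lower. Neither elongase stayed past 2-fold with TMM factors, nor against erythroid-like BFU-E cells, where Elovl5 was 1.98-fold and Elovl6 1.73-fold lower.

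Within the BFU-E plate, where plate and lane are shared, erythroid-like and granulocyte-monocyte-like cells could be set side by side. Of 9926 measured genes 8.97% were at least 2-fold higher and 14.4% at least 2-fold lower in erythroid-like cells, against 0 and 1 of the 7 members. Hmgcs1 was that member, with 79.1 CPM in erythroid-like and 206.6 CPM in granulocyte-monocyte-like cells, 2.61-fold lower (2.30 to 2.96). The call rested on BFUE_56. Without it the granulocyte-monocyte-like level was 128.9 CPM and Hmgcs1 was 1.63-fold lower in erythroid-like cells. The same cell set the direction for Fdft1, which had 28.7 CPM in erythroid-like cells and 45.5 CPM in granulocyte-monocyte-like cells with it or 20.3 CPM without it. Lss had 43.6 CPM in erythroid-like cells and 35.5 CPM in granulocyte-monocyte-like cells, or 21.1 CPM without that cell, and was then 2.07-fold higher in erythroid-like cells. Sqle had 73.2 CPM in erythroid-like cells and 73.8 CPM in granulocyte-monocyte-like cells without it. Median Hmgcs1 reads, which 1 cell cannot set, were 5 in erythroid-like and 10 in granulocyte-monocyte-like cells.

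BFUE_56 was picked because its sum of the 7 members was the highest of all cells, so high values of the members follow in part from the choice. It held 716 reads of the 7 members per 100000, against a median of 32 over the BFU-E plate and 154 in the next highest cell. The deposited count was not unusual, with 699937 reads on 7220 genes, within the range of the kept BFU-E cells. Each of the 7 members was higher there than in any other BFU-E cell: Hmgcs1 with 308 reads against at most 56 elsewhere, Fdft1 98 against 22, Cyp51 97 against 51, Sqle 84 against 48, Lss 57 against 21, Idi1 39 against 34 and Fdps 33 against 9. The excess was uneven, as Hmgcs1 stood 5.50 times above the next cell and Idi1 1.15 times. Of the 13 other enzymes 7 were also highest there, among them Msmo1 (172 reads against at most 32) and Hsd17b7 (112 against 16), while Nsdhl had 0 reads and Lbr, with 74 reads, lay within the range of the plate. The cell was highest for 0 of 9 sterol sensing genes and 0 of 14 isoprenoid branch genes, and for Stard4, a sterol transfer protein, Fasn, Scd1 and Elovl6. Over all 10489 genes found in at least 10% of the cells of the plate, it was highest for 178, or 1.70%, against a median of 73 and a maximum of 537 over single cells. This share is a backdrop and no test of the members, since the cell was chosen by them.

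The identity of BFUE_56 was mixed. It fell in the cluster led by Adgrl4, Hlf and Csf3r. It held 70 reads of Csf1r, a monocyte gene with a plate median of 0, and 57 of Pdgfrb, a stromal gene at 0 to 33 in the other cells. It also held 14 reads of the lymphoid gene Rag1, at 0 in every other BFU-E cell, 27 of Rag2 and 26 of Flt3. Hepatocyte markers came to 42 reads, against a median of 13 and a maximum of 343 in the other cells, and erythroid markers to 39, against a median of 155. No doublet caller was run, and whether the well held 1 cell was not tested. The plot of the enzymes in this cell shows it beside the other 91 cells.

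**Figure D4:**
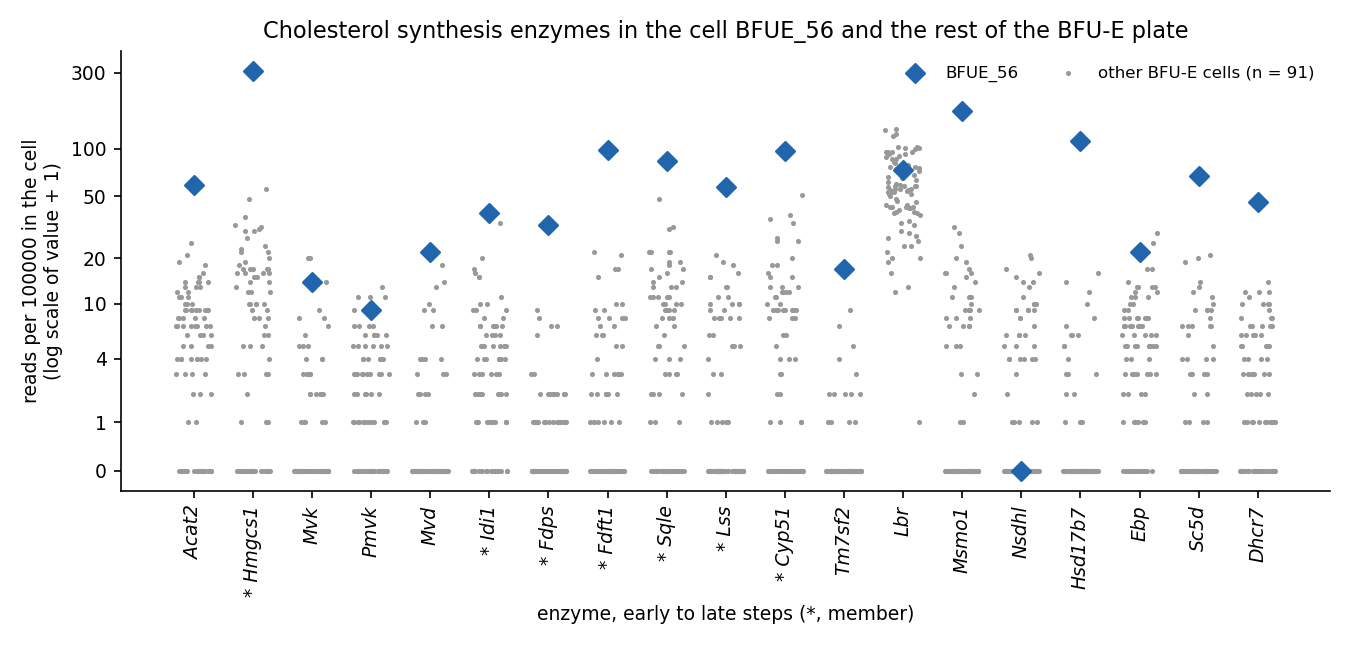
Reads per 100000 (vertical axis, log scale of the value + 1) of 19 cholesterol synthesis enzymes in the cell BFUE_56 (diamonds) and in each of the other 91 BFU-E cells (grey points). The cell was chosen for its sum of the 7 members. The diamond tops the plate for all 7 members and for 7 other enzymes, lies within the grey points for Lbr, and lies at 0 for Nsdhl.

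From cell to cell, correlations between members scattered around 0 at these low counts. Over the 21 pairs of members the median Spearman correlation was 0.03 across 89 CFU-E cells and 0.01 across 47 erythroid-like BFU-E cells. In CFU-E the pairs ranged between -0.22 (Idi1 and Fdps) and 0.34 (Sqle and Cyp51), and Sqle with Cyp51 was the only pair above 0.3. The same pair was the lowest in erythroid-like BFU-E cells, at -0.25. Cells of a group share plate and depth, counts per cell were low, and these values are given as a description. A CFU-E cell held a median of 5 of the 7 members and an erythroid-like BFU-E cell a median of 4, and all 7 were found in 7 of 89 CFU-E and 3 of 47 erythroid-like BFU-E cells.

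**Figure D5:**
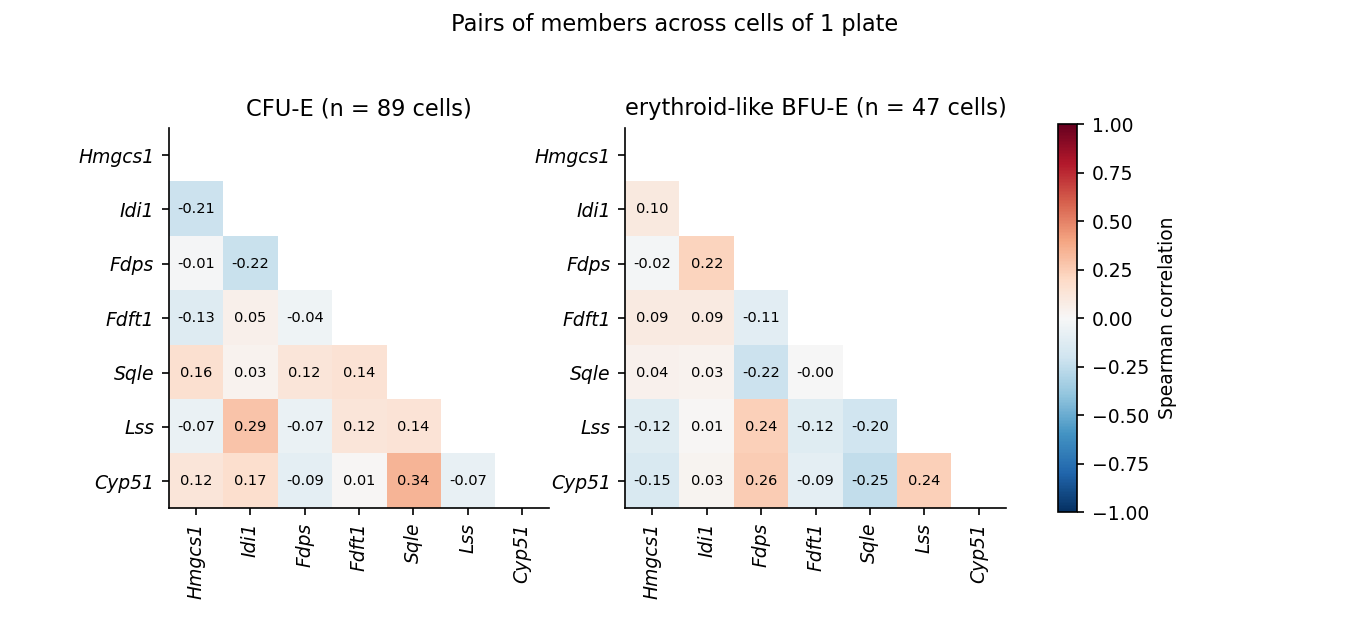
Spearman correlation (colour and number) of each pair of members across 89 CFU-E cells (left) and 47 erythroid-like BFU-E cells (right). Values scatter around 0 in both, with 0.34 for Sqle and Cyp51 in CFU-E and -0.25 for the same pair in erythroid-like BFU-E cells.

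The summed members were also set against scores of cell state. The 89 CFU-E cells used here include the 3 lymphoid-led cells, and no value without them was computed. Erythroid markers summed to 580 CPM in those 3 cells, against 13896 CPM in the other 86. Of the single genes ranked below, 1 in 100 correlated with the summed members at under -0.25 in CFU-E and under -0.35 in erythroid-like BFU-E cells. With a score of erythroid progress (genes that climb minus genes that decline on the way to red cells) the Spearman correlation was -0.28 in CFU-E and -0.30 in erythroid-like BFU-E cells. With S phase genes it was -0.10 in CFU-E and -0.02 in erythroid-like BFU-E cells, and with G2 and M phase genes -0.21 in CFU-E and 0.05 in erythroid-like BFU-E cells. With the reads of the cell it was 0.02 in CFU-E and -0.22 in erythroid-like BFU-E cells. With the mean log2 of CPM + 1 over the other 13 enzymes it was 0.28 in CFU-E and 0.27 in erythroid-like BFU-E cells. Across the 5093 well-detected genes the 8 most like the summed members in CFU-E were Rcc2 (correlation 0.42), Scd2 (0.42), Fip1l1 (0.40), Acaca (0.37), Zzz3 (0.37), Larp4b (0.36), Kit (0.35) and Pbdc1 (0.35), where 1 gene in 100 exceeded 0.27. In erythroid-like BFU-E cells, over 5640 genes, they included Gm32856 (0.48), 1700020I14Rik (0.48), Ptpn2 (0.47), Hnrnpa0 (0.47), Rgs18 (0.47), Dok2 (0.44) and Rpn1 (0.44). In these cells 1 gene in 100 exceeded 0.35. The 2 sets share no gene, but 2 lists of 8 out of 5093 and 5640 genes would seldom share any, so this is not a result.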

How the data were processed

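Single mouse fetal liver cells were profiled by SmartSeq2, which reads whole polyA transcripts and marks neither strand nor molecule. Reads were aligned to GRCm38 and counted; the submitters' processing notes name STAR 2.4 and featureCounts. What the authors deposited is the raw count of each gene in each cell, with no normalization. Which annotation was used, whether strand counted and how ambiguous reads were handled is not given in the sources used here. For the 192 labelled cells, 191 columns matched a cell by name; 1 further column matched none and was left out.

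A cell was kept from 100000 counts and 2000 genes upward, thinned to 100000 counts (seed 1) and summed per group. Ratios of CPM carry exact conditional binomial intervals, and log2 folds use a pseudocount of 1 CPM. Each plate was clustered on its own (Ward linkage, 1000 variable genes, 10 components), and clusters were named from marker lists. No doublet caller was run. Coordinates and exonic lengths come from GENCODE M21, and promoters from RefSeq. Python 3.11.15, numpy 2.4.6, scipy 1.17.1, scikit-learn 1.9.0 and, for TMM factors only, edgeR 4.0.16 were used. Sums, ratios and calls were tested on simulated data for CFU-E over BFU-E with 9407 measured genes: 100 of 100 genes made 4-fold higher and 100 of 100 made 4-fold lower were called, as were 42 of 9207 left unchanged. The median estimate for a true 4-fold was 3.70. Both simulated plates had the same mean profile apart from the changed genes, without the shift of the median gene or the mix of cell types. The 42 calls therefore give no error rate for the real comparison.

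The labels name no animal or culture, so each cell type is 1 sample and no test was made. The members and gene lists were chosen with earlier results of these data known. Named are the 7 members, all other enzymes and sterol sensing genes, the 2 highest and 2 lowest of each further list by log2 fold, any count of 5 or fewer, and the 8 genes most correlated with the summed members; a few genes under this rule are not reported here. BFUE_56, its genes and the 3 lymphoid-led cells were picked out after their values were seen. Alternatives covered cell filters, thinning, scaling, pseudocount, clustering and single cells left out.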

Additional observations from a re-analysis of the deposited data

How the results depend on the processing

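No paired analysis was possible because each cell type is 1 plate and the result comes from no test; shared cell numbers only name wells. Hmgcs1 was at least 2-fold lower in CFU-E than in BFU-E and than in erythroid-like BFU-E cells under every alternative run. The median gene shifted from -0.57 to 0.00 with TMM and 0.07 with median-of-ratios factors. In CFU-E over BFU-E the count of members at least 2-fold higher moved from 0 to 3 with TMM and with median-of-ratios factors (Fdft1, Sqle and Lss in both), and to 1 (Fdft1) with summed unthinned counts, totals without the 50 most abundant genes, without the highest cell of each gene, without BFUE_56 and with erythroid-like cells of both plates; the last 2 were chosen after seeing the data, as were all other settings without BFUE_56, the lists against erythroid-like BFU-E cells and, beyond CFU-E over BFU-E, those without the lymphoid-led cells. Over erythroid-like BFU-E it moved from 1 to 3 with TMM (Fdft1, Sqle, Cyp51), to 4 with median-of-ratios (those and Lss) and to 0 with cells called by marker means, a set of 60 cells that holds BFUE_56. In erythroid-like over granulocyte-monocyte-like cells the count of members lower moved from 1 to 0 without the highest cell of each gene and without BFUE_56, and the count higher from 0 to 1 (Lss) without BFUE_56.

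For the lists in CFU-E over BFU-E, TMM and median-of-ratios factors gave the same counts where they moved: 1 other enzyme higher (Pmvk) and 1 lower (Mvd), 2 sterol sensing genes higher and 1 lower, 2 uptake and transport genes higher, 2 isoprenoid genes higher, and 0 fatty acid genes lower. At 1.5-fold the higher and lower counts were 1 and 5 for other enzymes, 2 and 4 for sterol sensing, 2 and 8 for uptake and transport, and 2 and 7 for the isoprenoid branch. With genes measured at 20 CPM, 1 other enzyme, 1 sterol sensing and 3 uptake genes were lower. Against erythroid-like BFU-E cells only, 1 sterol sensing gene was lower, 0 uptake genes were higher and 0 fatty acid genes were lower. Without BFUE_56, 1 other enzyme was lower. Median pair correlations stayed within 0.1 of their reported values. The spread over mice, plates and lanes is unknown; counting error alone is large for Fdps and Mvd.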

Other observations

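Outside the lists, genes with at least 100 reads per 100000 in BFUE_56 were ranked by their excess over the other 91 BFU-E cells, a ranking made after the cell had been singled out. Fry led with 150 reads, against a mean of 1.47 in the other cells and at most 22. The actin-severing protein Gsn had 120 reads, against at most 74 elsewhere. Stc1, a secreted hormone, reached 284 reads in another cell of the plate. Tgfbr1, a TGF-beta receptor, had 124 reads, against at most 33 elsewhere. The myeloid antigen Cd33 had 184 reads, against a mean of 7.40 elsewhere and at most 188.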
